A study of Mus musculus with 6 samples.

Results

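Brain-derived neurotrophic factor (Bdnf) and the receptor genes Ntrk2 (TrkB) and Ntrk3 (TrkC) were examined for the transcript starts, transcript ends and splicing events that were assembled in the nucleus accumbens (NAc) of mice after morphine conditioned place preference (CPP). The members were all entries filed under the gene identifiers of these 3 genes in the event lists of 6 libraries. All 3 genes were found in every library, out of 16154 genes listed over the series. RNA came from adult male C57BL/6N mice carrying no transgene, 3 libraries from animals conditioned with saline injections and 3 from animals conditioned with intraperitoneal morphine, which received saline in the alternate sessions. Both groups went through the same apparatus and test, in which a chamber is paired with the injection, and tissue was taken shortly after the test. The series description counts more mice than libraries, whereas the study's figure text gives a single mouse per library, so whether animals were pooled is not settled.

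BDNF is a secreted growth factor of neurons. Its gene has a row of alternative first exons, each with its own promoter, and all of them are spliced to a shared last exon. That exon holds the whole coding sequence of the mature protein. The choice of promoter therefore changes the 5' part of the mRNA and not the mature protein. BDNF binds TrkB, and the related ligand neurotrophin-3 binds TrkC. Both receptors are made with an intracellular tyrosine kinase or as truncated forms without it, which end at their own terminal exons. TrkC also exists with short peptide inserts in its kinase domain, which are known to alter its signalling. In the NAc, BDNF is mostly brought in by axons from cortex and midbrain, and TrkB lies on the striatal projection neurons.

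An event is a transcript start or end, or a place where the assembled transcripts of a gene are spliced differently. The lists give its position in a library but no expression level. A listing was therefore read as presence in the assembly of that library, and a missing one as not listed, not as absent from the tissue. In bulk tissue, fewer cells of a type and less RNA per cell cannot be told apart. The lists held 67535 to 80469 entries in 14243 to 14956 genes per library, and the relative depth, recovered from the deposited lncRNA counts, lay between 1.0 (saline 1) and 1.59 (morphine 2). All 10 markers of striatal projection neurons were listed in all 6 libraries. So were the 6 astrocyte, 6 oligodendrocyte, 5 microglia, 4 ependyma and 4 cortical excitatory neuron markers, and 2 of the 3 vascular markers, with the last listed in 0. These lists carry no level, so the part of other cells in the results was not tested.

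The sequences shown are the stretches before the Bdnf first exons I and IV and the alternatively used coding exons of Ntrk3. The promoters, 250 bases each and ending at the base before the annotated start, are from RefSeq (GRCm38.p6, plus strand). They lie at chr2:109674450-109674699 for exon I and at chr2:109692186-109692435 for exon IV. Capitals mark TCACGT, the core that the known CREB-binding elements of both promoters share.
Bdnf exon I promoter: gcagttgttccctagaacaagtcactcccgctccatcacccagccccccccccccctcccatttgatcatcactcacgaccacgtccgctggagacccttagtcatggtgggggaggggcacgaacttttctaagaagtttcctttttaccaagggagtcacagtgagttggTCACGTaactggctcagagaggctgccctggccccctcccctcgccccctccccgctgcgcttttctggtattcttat
Bdnf exon IV promoter: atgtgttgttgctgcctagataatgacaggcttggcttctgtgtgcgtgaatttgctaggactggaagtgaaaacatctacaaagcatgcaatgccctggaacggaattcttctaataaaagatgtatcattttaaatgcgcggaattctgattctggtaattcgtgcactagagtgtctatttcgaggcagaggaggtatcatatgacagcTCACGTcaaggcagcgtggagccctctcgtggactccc

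TCACGT was searched on both strands, together with the shorter element CGTCA and the E-box CACGTG, which reads alike on both strands. TCACGT can overlap either of the others. TCACGT began at position -78 from the start of exon I and at -38 from that of exon IV. CGTCA was found before exon IV, at -35, overlapping TCACGT, and not before exon I. CACGTG was in neither window. Of all 32851 RefSeq promoter windows cut to the same length, 5.88% held TCACGT, 17.8% held CGTCA and 6.02% held CACGTG. None of the 3 motifs was in the windows of exons III, V, VII and VIII, in that of the remaining RefSeq start of Bdnf at 109722921, or in that of the RefSeq start of Ntrk2. Exons II and VI of Bdnf and Ntrk3 had no matching RefSeq window and were not searched. Starts at exons II and VI were listed (in 6 and 5 libraries), so the motifs cannot be set against the listing of starts. These matches describe letters in a window and not binding.

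The Ntrk3 exons are shown in capitals, in the direction of transcription (minus strand), with 15 bases of the neighbouring exon on each side in lower case. They are from the GENCODE M21 transcript Ntrk3-206, which holds both inserts, and for the 135-nt exon from Ntrk3-202, of the truncated form. The direct junction, from Ntrk3-201, joins the outer neighbours with neither insert.
75-nt exon, chr7:78229487-78229561: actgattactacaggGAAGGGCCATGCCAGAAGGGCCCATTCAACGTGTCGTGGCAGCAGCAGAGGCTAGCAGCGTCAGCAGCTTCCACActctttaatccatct
42-nt exon, chr7:78204103-78204144: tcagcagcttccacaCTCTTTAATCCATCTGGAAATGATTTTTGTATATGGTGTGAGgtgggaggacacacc
direct junction, neither exon: actgattactacagggtgggaggacacacc
135-nt exon of the truncated form, chr7:78304292-78304426: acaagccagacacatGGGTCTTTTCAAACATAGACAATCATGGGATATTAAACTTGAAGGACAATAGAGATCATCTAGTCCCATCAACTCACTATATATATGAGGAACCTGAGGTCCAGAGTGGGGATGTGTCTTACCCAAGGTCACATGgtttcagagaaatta

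Over the 3 genes, 36 distinct events were listed, of which 9 were in all 6 libraries, 10 in 2 to 5 libraries and 17 in 1 library only. All 9 of the recurrent events sat at positions of annotated starts, ends or exons, and 8 of the 9 events without an annotated position were in 1 library only. Whether an annotation guided the assembly is not stated in the sources used here. If it did, such matches were partly fixed in advance. The share listed in all 6 libraries was 25.0%, against 20.5% of the 132823 events of all genes. The share in 1 library only was 47.2%, against 50.5% of all events. An event was called specific to a group when all 3 of its libraries listed it and no library of the opposite group did. No event of the 3 genes met this rule (0 of 36), against 0.658% of the events of all genes (0.277% for saline and 0.381% for morphine), so this count was near the background. In 11 events the listing was in saline libraries only and in 9 in morphine libraries only, and 3 of these were in 2 libraries of their group. These 3 were the Bdnf exon IIB start (saline 1 and 3), skipping of the Ntrk3 135-nt exon (morphine 1 and 2) and the end of Ntrk3-204 (morphine 2 and 3). The other 17 were in 1 library and so in 1 group by definition. The share of events listed in 1 group only was not computed over all genes, so no lean to a group is drawn from these counts.

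Bdnf (ENSMUSG00000048482) lies on the plus strand of chromosome 2, from 109674700 to 109727007 (GRCm38). The annotation has 11 transcripts with 8 first exons by position, numbered I to VIII along the gene, and 10 when the donor sites of exon II are told apart. Starts at 4 of the 8 positions were listed, at exons I, II, IV and VI, and the other 4 (III, V, VII and VIII) were listed in 0 of 6 libraries. All 6 listed starts matched an annotated first exon to the base at its donor site, which an assembly guided by an annotation would give by itself.

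The start at exon I (640 nt, 109674700 to 109675339) was listed in all 6 libraries. Exon II was also listed in all 6, with its most distal donor (exon IIC, 499 nt, 109675897 to 109676395). These 2 starts are 1197 bases apart and were the constant part of the Bdnf assembly in both groups. The shorter donors of exon II came and went. Exon IIB (416 nt, to 109676312) was listed in saline 1 and saline 3, and exon IIA (204 nt, to 109676100) in morphine 2.

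Exon VI (347 nt, 109693563 to 109693909) was listed in saline 2, saline 3 and all 3 morphine libraries, and was missing in saline 1. Exon IV (339 nt, 109692436 to 109692774), whose promoter is known for its induction by neuronal activity, was listed in saline 2, saline 3 and morphine 2. It was thus in 2 of 3 saline and 1 of 3 morphine libraries, and was missing in saline 1, morphine 1 and morphine 3. The groups overlapped for every Bdnf start.

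**Figure D1:**
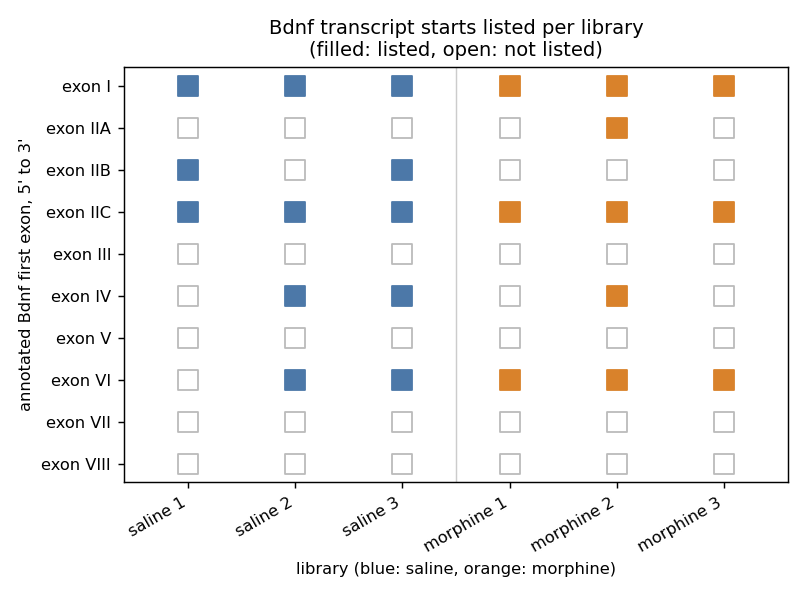
Listing of the 10 annotated Bdnf first exons (rows, in order along the gene) in the 6 libraries (columns, blue for saline and orange for morphine), where a filled square means listed and an open square not listed. Exons I and IIC are filled in all 6 libraries, exon VI in 5 and exon IV in 3, and exons III, V, VII and VIII in 0.

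The number of Bdnf starts was 3 in saline 1, 4 in saline 2 and 5 in saline 3. It was 3 in morphine 1, 5 in morphine 2 and 3 in morphine 3. In order of rising relative depth, the libraries were saline 1 (1.0, 3 starts), saline 2 (1.07, 4 starts), morphine 1 (1.2, 3 starts), morphine 3 (1.29, 3 starts), saline 3 (1.37, 5 starts) and morphine 2 (1.59, 5 starts). The 2 deepest libraries had the most starts, and the other 4 did not follow the order of depth. The part of depth in these numbers was not tested. Saline libraries had a mean of 4.0 ± 1.0 Bdnf starts and morphine libraries 3.67 ± 1.15 (SD, n = 3; p = 1.0, exact permutation test, two-sided).

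Over the 6 libraries Bdnf had 6 distinct starts, against a median of 2 over the 16154 listed genes, and 8.7% of genes had at least as many. It had a single end, at the shared last exon (3626 nt, 109723382 to 109727007), and no splicing event. That end was listed to the base in all 6 libraries, with the same limit as for the starts. Of the 1405 genes with 6 or more starts, 148 (10.5%) likewise had no splicing event, and the median over the 1405 was 9 splicing events.

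The deposited value of each entry is 0 or a negative whole number, and its meaning is not given in the sources used here. For Bdnf its size behaved as a number of assembled transcripts. Every start carried a value of size 1, and the size at the shared end was 3, 4 and 5 in saline 1, 2 and 3 and 3, 5 and 3 in morphine 1, 2 and 3, which equals the number of starts in each of the 6 libraries. Over all genes the sums over starts and over ends were equal in 64.4% to 68.7% of genes per library, higher over starts in 20.5% to 23.5% and higher over ends in 10.8% to 12.1%. Among genes with a sum of 2 or more over starts or ends, as Bdnf has, they were equal in 41.5% to 45.7%, so equal sums were not the rule there, and the reading as transcript numbers describes Bdnf and was not tested for the other genes. Where the sum over ends was the lower, a part of the assembled ends may be missing from the lists, and this bears on both receptor genes.

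**Figure D2:**
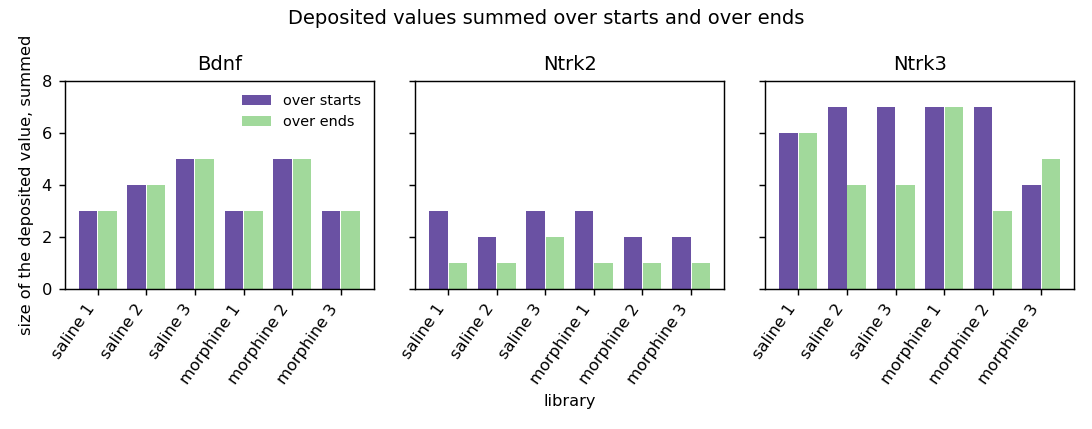
Size of the deposited values summed over the transcript starts (purple) and ends (green) on the strand of each gene, per library. The bars are equal in all 6 libraries for Bdnf, whereas for Ntrk2 the sum over starts is 2 or 3 and that over ends 1 or 2.

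Ntrk2 (ENSMUSG00000055254) encodes TrkB, the receptor of BDNF, and lies on the plus strand of chromosome 13, from 58806569 to 59133970 (GRCm38). Its event list was short, with 7 distinct events, of which 3 were in all 6 libraries, 1 in 3 and 3 in 1 only. Starts with the donors at 58806852 and at 58808013, both annotated, were listed in all 6 libraries. Their listed first exons were 257 and 114 nt long. A longer first exon, from the same start as the former to a donor at 58807188 (593 nt), had no counterpart in the annotation and was listed in saline 1, saline 3 and morphine 1.

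The end of TrkB with its kinase (last exon 59128168 to 59133970, 5803 nt) was listed in all 6 libraries. Of the other annotated last exons, the start of none was found in any entry of the gene in any library, including 58932023, the last exon of Ntrk2-202 and Ntrk2-204, which end upstream of the kinase exons. This does not show that truncated TrkB was absent. The sum over starts exceeded that over ends by 2 in saline 1 and morphine 1 and by 1 in the other 4 libraries, so if these values count transcripts, at least 1 transcript per library had no listed end.

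The remaining Ntrk2 entries were each in 1 library. In saline 2, a 54-nt stretch inside an annotated exon (58808599 to 58808654) was listed as a retained intron, with its spliced partner entry on the minus strand. In morphine 2, a pair of starts on the minus strand, with the splice side at 59071436 and at 59073597, was filed under Ntrk2. They lie inside the annotated antisense gene 4930415C11Rik (59054896 to 59084093, minus strand), which was itself listed in 0 libraries. With these minus-strand entries left out, Ntrk2 had 4, 4 and 4 events in saline and 4, 3 and 3 in morphine.

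Ntrk3 (ENSMUSG00000059146) encodes TrkC, the receptor of neurotrophin-3, and lies on the minus strand of chromosome 7, from 78175959 to 78738012 (GRCm38). With 22 distinct events it was the most varied of the 3 genes, and 7.01% of listed genes had at least as many. Only 3 of the 22 were in all 6 libraries. They were the start at 78577536 and the skipping of the 42-nt and of the 75-nt exon, and 13 of the 22 were in 1 library only.

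The 42-nt and 75-nt exons are wholly coding and add 14 and 25 codons, or 39 codons when both are spliced in, which are the lengths of the known inserts in the TrkC kinase domain. Both exons were listed as skipped and included in every library. The flanking positions of each entry were used to tell which of the 4 combinations were assembled. The form with neither exon and the form with only the 42-nt exon were found in all 6 libraries. The form with only the 75-nt exon was found in 5, all but morphine 3. The form with both exons was found in saline 2, saline 3, morphine 1 and morphine 3.

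All 4 forms were thus assembled in saline 2, saline 3 and morphine 1, and 3 of the 4 in saline 1, morphine 2 and morphine 3. Each group held every form in at least 2 of its 3 libraries, and the groups overlapped for each of the 4. Among all genes, 24.2% of single skipped exons were listed in all 6 libraries.

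**Figure D3:**
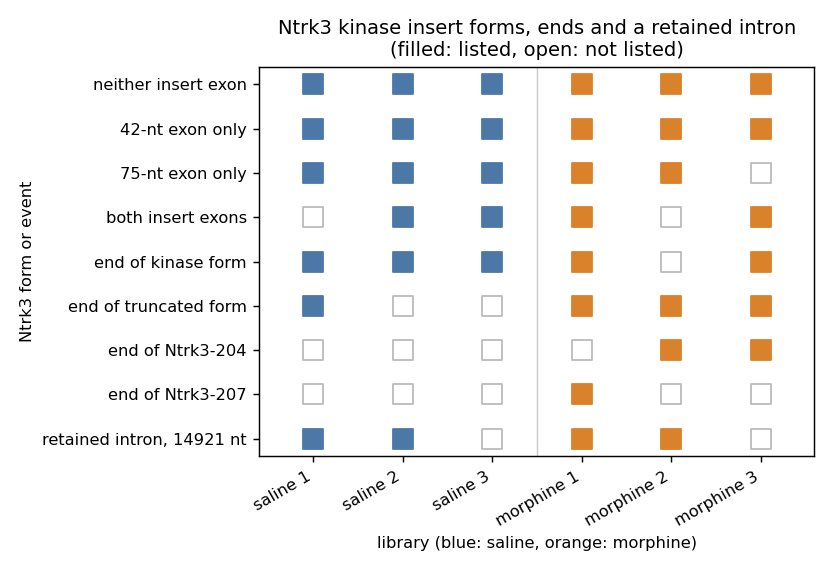
Listing of Ntrk3 kinase insert forms, transcript ends and the longest retained intron (rows) in the 6 libraries (columns, blue for saline and orange for morphine), where a filled square means listed and an open square not listed. The forms with neither exon and with the 42-nt exon only are filled throughout, and the end of the truncated form is filled in 1 saline and all 3 morphine libraries.

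The end of the kinase form of TrkC (splice side 78192744) was listed in 3 of 3 saline and 2 of 3 morphine libraries. In morphine 2 this end was not listed, although 3 of the insert forms upstream of it were, so a missing end is not a missing transcript. Its outer position was 78192380 in saline 2, saline 3, morphine 1 and morphine 3, and 78192407 in saline 1.

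The end of the truncated form (splice side 78302747, annotated in Ntrk3-202, Ntrk3-203 and Ntrk3-216), which leaves out the kinase, was listed in saline 1 and in morphine 1, 2 and 3. In the 3 morphine libraries the terminal exon ran to 78302323 (425 nt) in each case. In saline 1 it ran to 78290934 (11814 nt). With outer positions counted, the 425-nt end was therefore in all 3 morphine and in no saline library. Of all 169037 events identified in that way, 0.478% were specific to a group and 0.255% were listed only in morphine. With the splice side alone, as used elsewhere, it was not specific to a group.

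The presence of the truncated end in saline 2 and saline 3 could not be settled from the lists. No entry in these libraries touched its terminal exon or the 135-nt exon before it, but the sum over starts was 7 and that over ends 4 in both, and in morphine 2 they were 7 and 3. The sums were equal in saline 1 (6 and 6) and morphine 1 (7 and 7), and in morphine 3 they were 4 over starts and 5 over ends. The 135-nt exon, wholly coding in Ntrk3-202, was listed as skipped in morphine 1 and morphine 2. The flanks of these entries were the terminal exon and the upstream exon, so the truncated form was assembled both with and without the 135-nt exon in each. In saline 1 an entry joined the 135-nt exon to a stretch of the terminal exon (78294580 to 78302747) and on to the kinase-form exon ending at 78260414, and the same stretch and exon were also listed as skipped together.

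A pair of further annotated ends was listed in morphine only. The end with its splice side at 78450989 (Ntrk3-204) was in morphine 2 and 3, and that at 78356215 (Ntrk3-207) in morphine 1. The number of Ntrk3 ends was 2, 1 and 1 in saline 1, 2 and 3 and 3, 2 and 3 in morphine 1, 2 and 3. Saline 1 and morphine 2 shared the value of 2, so the groups overlapped, with means of 1.33 ± 0.577 and 2.67 ± 0.577 (SD, n = 3; p = 0.2, exact permutation test, two-sided). Starts and ends counted together were 3 in each saline and 4 in each morphine library, and here the groups did not overlap. This rests on unannotated starts seen in a single library each, in saline 2, saline 3 and morphine 2. Without them every library keeps only the start at 78577536, and the groups overlap as they do for ends. No conclusion is drawn from this comparison. The p was 0.1, the smallest that an exact two-sided permutation test of 3 against 3 libraries allows, and the Benjamini-Hochberg adjusted p over the 22 numbers compared was 1.0. Over all genes, 1.49% had numbers of starts and ends that did not overlap between groups, and in 0.953% morphine was the higher.

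Unannotated Ntrk3 starts were each in a single library. They had their splice side at 78401196 in saline 2, at 78463944 in saline 3 and at 78222588 in morphine 2, each inside the gene, and their first exons were 1662, 5481 and 7592 nt long. That in morphine 2 spans the 75-nt exon. No start other than that at 78577536 was listed more than once.

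Intron retention in Ntrk3 turned on an intron of 14921 nt (78462942 to 78477864), listed as retained in saline 1, saline 2, morphine 1 and morphine 2. The other retained introns were seen once each. They were an intron of 6934 nt in saline 1, an intron of 467 nt in morphine 3, and a run across both (7698 nt) in morphine 2. In saline 1, the 6934-nt intron adjoined a 24-nt coding exon (78453323 to 78453346) that was also listed as skipped there, and the 2 alternative exon end entries of the gene were in the same stretch and library. A 131-nt coding exon of the kinase form (78260284 to 78260414), whose length is not a multiple of 3, was listed as skipped in saline 2. A pair of exons between 78516729 and 78517493, near the 5' end, was listed as skipped together in saline 3.

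With all listed events counted, the groups overlapped in each of the 3 genes. With the events seen in 1 library left out they did not overlap in Ntrk3, where this filter kept events listed in morphine alone. Bdnf had 4, 5 and 6 events in saline 1, 2 and 3 and 4, 6 and 4 in morphine 1, 2 and 3, with means of 5.0 ± 1.0 and 4.67 ± 1.15 (SD, n = 3; p = 1.0, exact permutation test). Ntrk2 had 4, 4 and 4 events in saline and 4, 5 and 3 in morphine, with means of 4.0 ± 0.0 and 4.0 ± 1.0 (SD, n = 3; p = 1.0, exact permutation test). Ntrk3 had 11, 8 and 7 events in saline and 9, 9 and 8 in morphine, with means of 8.67 ± 2.08 and 8.67 ± 0.577 (SD, n = 3; p = 1.0, exact permutation test). In 2.77% of all genes the ranges did not overlap (1.8% with morphine higher and 0.966% with saline higher). With only events found in 2 or more libraries counted, Ntrk3 had 6, 6 and 5 in saline 1, 2 and 3 and 8, 7 and 7 in morphine 1, 2 and 3. Every morphine library was thus above every saline library, but the filter itself contributed to this. It kept the skipping of the 135-nt exon (morphine 1 and 2) and the end of Ntrk3-204 (morphine 2 and 3), which no saline library listed. No Ntrk3 event passed it through saline alone. Without both events the groups overlap, so no conclusion is drawn from this comparison. The means were 5.67 ± 0.577 and 7.33 ± 0.577 (SD, n = 3; p = 0.1, exact permutation test, two-sided, not adjusted). Of the 14858 genes with such events, 2.45% did not overlap between the groups, and in 1.47% morphine was the higher. Counted in the same way, Bdnf (4, 5 and 6 against 4, 5 and 4) and Ntrk2 (4, 3 and 4 against 4, 3 and 3) overlapped. Each p-value is the share of all divisions of the libraries into 3 and 3 whose difference in means was at least as large in size. The smallest p that 3 against 3 libraries allow is 0.1. Saline 1, the library of lowest depth, held the most Ntrk3 events and the fewest Bdnf events, the latter together with morphine 1 and 3.

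**Figure D4:**
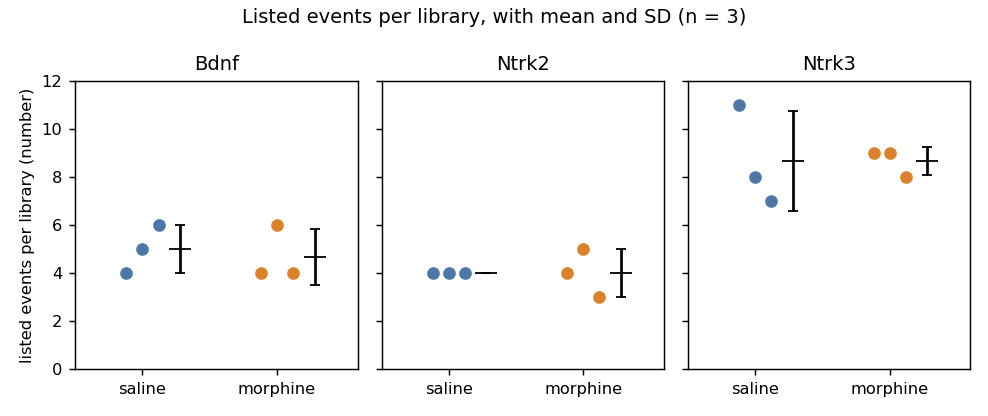
Number of listed events per library for Bdnf, Ntrk2 and Ntrk3, with a point per library (blue for saline, orange for morphine) and the mean and SD of 3 libraries beside them. The groups overlap in each gene, and the widest spread is that of Ntrk3 in saline, from 7 to 11.

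The other genes of the neurotrophin pathway were taken from a list of 29, of which 25 were listed in all 6 libraries, 2 in 1 to 5 and 2 in 0. Among the ligands, Ntf3 (neurotrophin-3, the TrkC ligand) was listed in saline 3, morphine 2 and morphine 3 with 3 distinct events, and Ntf5 in 0 libraries. The receptor Ngfr (p75) had the same 2 events in every library. The 4 sortilin-family receptors, which sort the BDNF precursor or bind it, had 22 events, 8 of them in all 6 libraries. The 7 proteases and sorting proteins of the precursor had 87, with 12 in all 6, and Plg (plasminogen) was listed in 0. The 13 adaptors and effectors had 113, with 28 in all 6.

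Over the list, 1 of 235 events (0.426%) was specific to a group, against 0.658% over all genes. It was a retained intron of 273 nt (160754011 to 160754285 on chromosome 2) of Plcg1, which encodes the phospholipase C that binds activated Trk receptors. The intron was listed as retained and as spliced in morphine 1, 2 and 3 and in no saline library.

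By the number of events in the 12 event classes in each of the 6 libraries, the gene most like Bdnf was Prkacb, a catalytic subunit of protein kinase A, with a summed absolute difference of 2, followed by 8 genes tied at 3. Those most like Ntrk2 were Ghr (growth hormone receptor) and 1190007I07Rik, both at 2, followed by 16 genes tied at 3. Those most like Ntrk3 were Pecam1 and Mbp, both at 21, followed by 6 genes tied at 22. For Bdnf and Ntrk2 such likeness is a description of short lists of small numbers. For Ntrk3, with 22 distinct events, a difference of 21 is a weak likeness.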

How the data were processed

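The authors mapped strand-specific reads of total RNA with HISAT2, assembled transcripts with StringTie and compared them with an annotation. The build and release were not given in the sources used here. The event lists, 1 per library, were deposited with a column named FPKM that holds only 0 and negative whole numbers, treated here as a score without a stated meaning. Their layout is that of the ASprofile program. The read counts and the FPKM values per lncRNA transcript, deposited by the authors in a table of transcripts they had called differential with DESeq, served only to recover relative depth, from the ratio of count to FPKM at 10 or more counts (weighted least squares). The authors' own fold changes and false discovery rates in that table were not used, and the number of per-sample columns left unused was 0.

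Included and skipped entries were merged into 1 event. A start or an end was defined by its coordinate next to the intron, and any other event by class and position. Retained introns are given by their flanking exon bases, and their length excludes both. Groups were taken from the treatment label, and replicate numbers only name libraries. Positions were compared with GENCODE M21 (GRCm38), counted from 1. Event numbers per library were set against each other with an exact permutation test (two-sided). Group-specific events, listed by all 3 libraries of one treatment only, were counted and set against all genes, a step checked on simulated lists. The members and lists were chosen with earlier results of these data known. Named genes were the members, pathway genes with a group-specific event, and the 3 genes closest in event numbers, with a tie of more than 5 given as a count. Ntf3, Ntf5, Ngfr and Plg were named besides, after their values were seen, and single values of some other list members are not reported here. Tables were handled with pandas 2.3.3 and numpy 2.4.6, tests run with scipy 1.17.1 and plots drawn with matplotlib 3.10.9, under Python 3.11.15.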

Additional observations from a re-analysis of the deposited data

How the results depend on the processing

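No paired analysis was possible because the labels give the libraries no replicate numbers shared between the groups. The difference in the number of Bdnf events, morphine minus saline, was -0.333 and ran from -1 to 0.167 when each library was left out in turn. It turned positive without saline 3 (0.167) and was 0 without morphine 1 or morphine 3. With a library left out, it ran for Ntrk2 from -0.5 to 0.5 and for Ntrk3, where it was 0, from -0.833 to 1.17. For Ntrk3 it was -1.67 with entries not merged (p = 0.6, exact permutation test) and -0.667 with all coordinates and the pattern as identity (p = 0.8, exact permutation test). It was 1.67 without events in 1 library only (p = 0.1, exact permutation test), where the groups did not overlap. That setting kept the skipping of the 135-nt exon and the end of Ntrk3-204, listed in morphine libraries alone, and without both the groups overlap. The direction of the Ntrk3 difference thus depends on the choice of events. For Ntrk2 it was -0.667 with the minus-strand entries left out (p = 0.4, exact permutation test) and -0.333 with entries not merged or without events in 1 library only. No p could fall below 0.1 in this design. The number of member events specific to a group was 0 and became 1 with all coordinates and the pattern as identity, and 1 with entries neither merged nor reduced to the splice side, in both cases by the 425-nt end of truncated Ntrk3. It ran from 0 to 1 when a library was left out. It was 1 without saline 1 (the truncated Ntrk3 end), saline 2 (the Bdnf exon IIB start), morphine 1 (the end at 78450989) or morphine 3 (skipping of the 135-nt exon). The number of group-specific events in the pathway list was 1. It became 2 with entries not merged, since the retained and the spliced entry of Plcg1 then count apart. With a library left out it ran from 2 to 8. There 2 libraries of a group are set against 3, which is a looser rule. The share over all genes was not computed with a library left out, for this list or for the members. No result about these genes is drawn from those counts. The number of member events in all libraries was 9 and ran from 7 to 10 over all alternatives. Relative depth ran from 1.0 to 1.59, and its part in the listing of rare events was not tested.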
